A study of Mus musculus with 12 samples.

Results

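The COPI coat genes are the 9 genes that encode the subunits of the COPI coatomer, namely Arcn1, Copa, Copb1, Copb2, Cope, Copg1, Copg2, Copz1 and Copz2. They were taken by name from the 21911 protein-coding gene symbols of the GENCODE M21 annotation of the mouse genome (mm10). For each gene, the H3K9ac peaks that overlapped its body or the 5 kb on either side of its start were collected from every library. H3K9ac is acetylation of lysine 9 of histone H3, which marks active promoters. The study mapped it in adult mouse liver by ChIP-seq, the sequencing of DNA recovered with an antibody. There were 2 libraries of C57BL/6J (B6), the strain of the reference genome, and 2 libraries of MSM/Ms (MSM), an inbred strain from Japanese wild mice, each from its own mouse. The reciprocal F1 hybrids gave 1 library each, F1 BM from a cross of B6 females with MSM males and F1 MB from MSM females with B6 males, so F1 values have no replicate error. Values of the B6 pair and of the MSM pair are given with replicate 1 first. The 6 input libraries were not analysed here. The study singled out Arcn1 for a change in DNA methylation at a B2 element upstream of it, which it described as present in B6 and absent from MSM, and then examined H3K9ac there. In the same livers it reported an acetylated region that stopped at the element in B6 and went further upstream in MSM. The strain difference at Arcn1 described below had thus already been seen by the study. The other 8 genes, its partners in the coat, were not picked that way. The question asked here was how Arcn1 stands among the genes whose products work in the same complex.

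COPI coatomer is recruited to Golgi membranes by small GTPases of the ARF family and forms vesicles that carry proteins and lipids back from the Golgi to the endoplasmic reticulum and between Golgi cisternae. It is built from an inner layer that resembles clathrin adaptors (the β, γ, δ and ζ subunits) and an outer, cage-like layer (the α, β′ and ε subunits). The γ and ζ subunits each exist in alternative forms made by paralogous genes. The coat is needed in all cells that secrete, and hepatocytes, which release most plasma proteins, use the pathway heavily.

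The lists differed in length. They held 22968 and 11619 peaks in the B6 pair, 17310 and 17584 in the MSM pair, 20173 for F1 BM and 13235 for F1 MB. Of these, 12, 5, 10, 10, 12 and 10 peaks, in that order, lay at COPI coat genes. Read counts are not part of these lists, the depth behind a peak is unknown and, where no peak is listed, absence cannot be told from a signal too weak for that library. Promoters of 8 of 9 annotated hepatocyte marker genes (Alb, Apoa1, Apoa2, Apob, Ttr, Cps1, Ass1 and Fgb) carried a peak domain in all 6 libraries, and the ninth, Hnf4a, had none within 500 bp of its annotated start. None of 4 Kupffer cell, 3 stellate cell, 2 bile duct or 6 other-organ markers did in any library, and of 3 endothelial markers Stab2 or Kdr did in 4 libraries. In bulk tissue, fewer cells with an acetylated promoter and less acetylation per cell cannot be told apart.

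The sequence beside Arcn1 is shown first because the positions of all peak edges at this gene are read against it. Arcn1 (chr9:44741564-44767845, minus strand) encodes the δ subunit. B2 elements are short interspersed elements (SINEs) that derive from a transfer RNA and spread by retrotransposition, and a new copy is flanked by short direct repeats of its target site. In the reference, the copy lies at chr9:44768004-44768206, 159 to 361 bp upstream of the Arcn1 start, is 203 bp long and runs in the orientation of Arcn1. It overlaps no annotated exon and lies inside the annotated body of Ift46, an intraflagellar transport gene on the opposite strand. The stretch below spans chr9:44767989-44768221 on the minus strand, with the 15-bp direct repeats in capitals.

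B2 copy upstream of Arcn1: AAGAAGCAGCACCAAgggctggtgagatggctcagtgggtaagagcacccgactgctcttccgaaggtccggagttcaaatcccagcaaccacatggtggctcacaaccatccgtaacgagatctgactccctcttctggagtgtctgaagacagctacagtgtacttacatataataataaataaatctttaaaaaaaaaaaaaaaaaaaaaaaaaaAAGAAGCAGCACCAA

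Matches to this copy were sought in the reference by BLAST, with at least 80% identity over at least 100 bp. Arcn1 matches itself by construction. Of its 8 partners, 2 had a match within 1 kb upstream of the start, Copz1 and Copz2, against 4.06% of all promoters (889 of 21911). The Copz1 match lay 390 to 576 bp upstream (chr15:103272138-103272324, 82.4% identity) and the Copz2 match 535 to 724 bp upstream (chr11:96849146-96849335, 83.8% identity). Both lie on the plus strand, as their genes do, so all 3 copies have the orientation of the gene. At 90% identity over 150 bp, none of the 8 partners had a match, against 1.14% of promoters. Copb1 had a closer relative at a greater distance, 1087 to 1281 bp upstream and in the opposite orientation (chr7:114255798-114255992, 96.4% identity over 195 bp). These 3 copies are printed so that their divergence can be seen. Capitals mark the bases that differ from the Arcn1 copy or are inserted relative to it, 7 at Copb1, 32 at Copz1 and 30 at Copz2.

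Copb1 copy: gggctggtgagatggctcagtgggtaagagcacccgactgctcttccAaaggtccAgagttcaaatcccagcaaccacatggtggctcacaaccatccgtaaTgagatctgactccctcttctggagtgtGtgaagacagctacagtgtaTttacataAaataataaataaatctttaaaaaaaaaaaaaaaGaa
Copz1 copy: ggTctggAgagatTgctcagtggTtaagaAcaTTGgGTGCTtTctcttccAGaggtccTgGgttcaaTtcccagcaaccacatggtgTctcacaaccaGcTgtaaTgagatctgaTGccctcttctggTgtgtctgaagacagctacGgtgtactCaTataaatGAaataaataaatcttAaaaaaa
Copz2 copy: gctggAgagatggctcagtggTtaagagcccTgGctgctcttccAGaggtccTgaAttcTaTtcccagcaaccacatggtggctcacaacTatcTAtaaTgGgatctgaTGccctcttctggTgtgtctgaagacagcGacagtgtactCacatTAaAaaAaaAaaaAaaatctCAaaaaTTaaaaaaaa

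Peaks 500 bp or less apart were joined into domains, and the domain nearest a gene start within 500 bp was taken as its promoter domain. The upstream reach is the distance in bp from the start to the upstream edge of that domain, and it is negative where the domain begins inside the gene. The downstream reach is the distance from the start to the edge inside the gene.

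All 9 COPI coat genes had a promoter domain in at least 1 library, but only 4 had it in every library. Arcn1, Copa, Copb2 and Copz1 had a domain in all 4 parental libraries, against 23.7% of all promoters. The same 4 had one in all 6 libraries, against 21.7%. Copb1, Cope and Copg1 had a domain in B6 replicate 1 and both MSM libraries but not in B6 replicate 2, the shortest list, a pattern shared by 6.99% of promoters. Copg2 and Copz2, the alternative forms of the γ and ζ subunits, had a domain in B6 replicate 1 alone among the parental libraries, as 5.44% of promoters did. B6 replicate 1 is the longest list and B6 replicate 2 the shortest. With the lists cut to the same number of peaks, Copb1, Cope, Copg1, Copg2 and Copz2 kept their domain in B6 replicate 1. They still had none in B6 replicate 2, and Copb1 lost its domain in MSM replicate 1 and Copg1 in MSM replicate 2. With the lists cut to the same covered length, none of these genes had a domain in either B6 library. The cause of these patterns was not tested. By library, 9 of 9 promoters had a domain in B6 replicate 1, 4 in B6 replicate 2, 7 in each MSM library, 7 for F1 BM and 8 for F1 MB. The shares of all promoters were 43.0% and 26.3% in the B6 pair, 34.0% and 34.6% in the MSM pair, 33.3% for F1 BM and 30.2% for F1 MB.

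**Figure D1:**
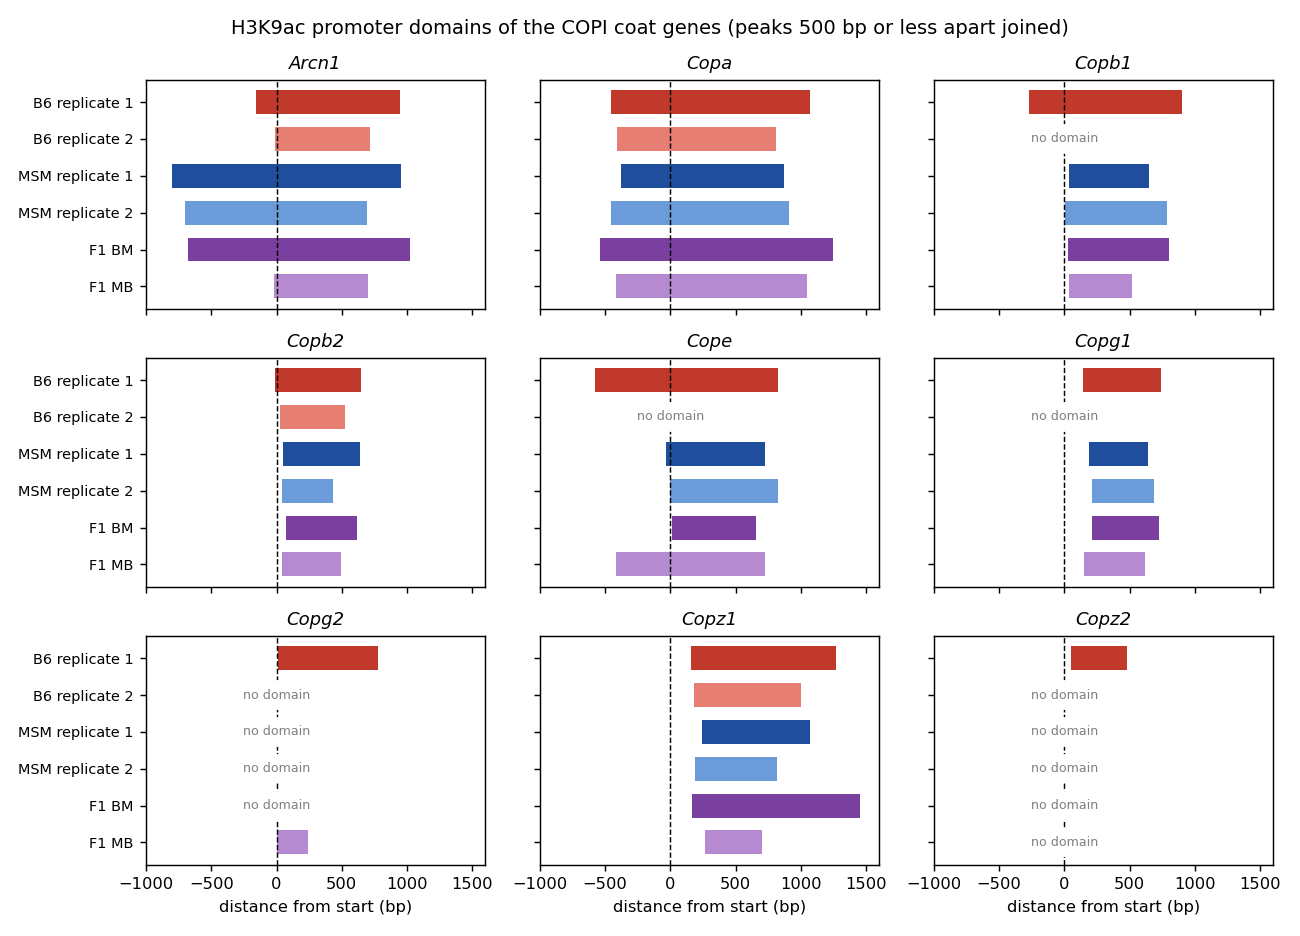
H3K9ac promoter domains of the 9 COPI coat genes in the 6 libraries, drawn as bars along the distance from the gene start (bp, negative is upstream), with the start as a dashed line. At Arcn1 the bars of both MSM libraries and of F1 BM extend 680 bp or more upstream, while the upstream edges of the 6 libraries lie within 160 bp of each other at Copa, 82 bp at Copb2 and 104 bp at Copz1.

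The domains of Arcn1 reached further upstream in MSM. The upstream reach was 155 and 10 bp in the B6 pair, against 799 and 704 bp in the MSM pair. It was 680 bp for F1 BM and 16 bp for F1 MB. The strains did not overlap and were separated by 549 bp, F1 BM lay near the MSM values, and F1 MB lay within the B6 range. The study counted reads by allele in the reciprocal hybrids and reported the MSM allele as the hyperacetylated one beyond the copy. Peak lists do not separate the alleles. With 1 library per cross, an effect of the cross on the F1 values was not tested. The B6 mean was 82.5 ± 103 bp and the MSM mean 751.5 ± 67.2 bp (SD, n = 2 each), a difference of 669 bp against a pooled within-strain SD of 86.7 bp. All reach values count bases of the B6 reference, which holds the 203-bp copy. Reach beyond the copy in MSM thus includes bases that the study described as absent there. The differences given for Arcn1 here and below were not corrected for this. The two-sided exact permutation p was 0.333, the smallest that 2 libraries against 2 can give, so no comparison of single values here could pass 0.05, and after Benjamini-Hochberg adjustment over all 5186 promoters with a domain in the 4 parental libraries it was 1.

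The other edge of the Arcn1 domain did not follow the strain. The downstream reach was 944 and 720 bp in the B6 pair, 954 and 695 bp in the MSM pair, 1021 bp for F1 BM and 704 bp for F1 MB. The parental values overlapped, and the difference of −7.5 bp lay below the pooled SD of 171 bp (exact permutation p = 1).

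The wider MSM domain was made of separate peaks. In B6 replicate 1 a single peak ended at chr9:44768000, 4 bp before the copy and inside the first direct repeat, and in B6 replicate 2 it ended 149 bp before the copy. In MSM replicate 2 the promoter peak ended 141 bp before the copy, and a second peak at chr9:44768244-44768549 began 38 bp past its far end. MSM replicate 1 had this second peak at chr9:44768212-44768644, 6 bp past the copy, and also one between them that lay over 128 bp (63.1%) of the copy. F1 BM had the second peak at chr9:44768238-44768525, 32 bp past the copy, and F1 MB had none. The second peak had a fold enrichment of 7.40 in MSM replicate 1, 3.73 in MSM replicate 2 and 2.43 in F1 BM, which was 0.795, 0.802 and 0.491 of the fold of the promoter peak in the same library. The 3 lists thus placed the near edge of the second peak within 32 bp of each other, on the far side of the copy. Reads of both strains had been mapped to the B6 sequence, which holds the copy, and the part that this had in the peak edges of MSM was not tested.

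**Figure D2:**
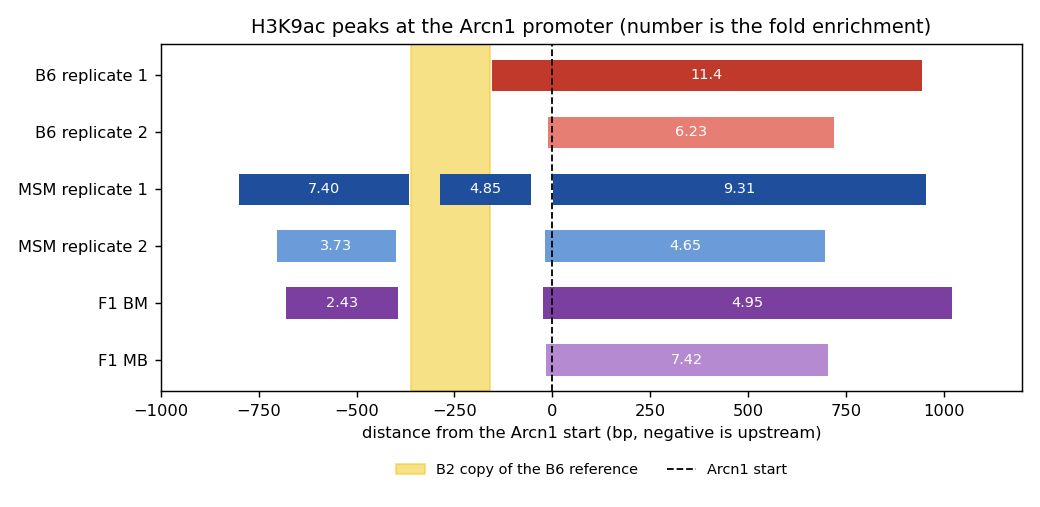
Peaks at the Arcn1 promoter in each library as bars along the distance from the start (bp, negative is upstream), with the fold enrichment of each peak written in it and the B2 copy of the reference shaded. Peaks beyond the copy are seen in both MSM libraries and F1 BM, with folds of 7.40, 3.73 and 2.43, and in neither B6 library nor F1 MB.

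A separate peak wholly upstream within 1 kb of the start, in both MSM libraries and in neither B6 library, was found at 1.99% of the 5186 promoters, and the reverse at 2.01%. Among the 4 COPI coat genes with a domain in all parental libraries, Arcn1 had such a peak in MSM and none had one in B6. Because the call rests on these peaks, it depends on the rules that keep and join them. Without joining, the promoter peak itself reached 18 bp or less upstream in MSM, and the strain difference of Arcn1 was −74 bp (exact permutation p = 0.667). With joining within 200 bp, MSM replicate 2 and F1 BM lost the second peak from their domains. The gaps before that peak were 380 and 369 bp in the reference and spanned the 203-bp copy. They are shorter on an allele without the copy, and joining on such sequence was not tested. Both libraries also lost the second peak with the lists cut to the same number of peaks or the same covered length. The strain difference was 326 bp under each of these settings, below its pooled SD of 397 bp. F1 BM then reached 23 bp upstream, as it did without joining and with a −log10 q of at least 5.

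The 3 partners with a domain in all libraries showed no such extension. Copa (chr1:172082529-172122330, plus strand) encodes the α subunit, the large scaffold of the outer layer. Its upstream reach was 452 and 413 bp in the B6 pair, 380 and 458 bp in the MSM pair, 540 bp for F1 BM and 418 bp for F1 MB. The strains overlapped, and the difference of −13.5 bp lay below the pooled SD of 43.6 bp (exact permutation p = 1). Its downstream reach ran from 806 to 1247 bp, with a strain difference of −46.5 bp and a pooled SD of 134 bp. The start of Ncstn, a γ-secretase subunit gene on the opposite strand, lies 266 bp inside Copa, so the Copa domain covers a bidirectional pair of starts. Both MSM replicate 2 and F1 BM had a pair of peaks here, with a gap from 189 or 181 to 292 bp downstream, and F1 MB had a wider gap, from 27 bp upstream to 390 bp downstream.

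Copb2 (chr9:98563721-98588382, plus strand) encodes β′, which forms the outer layer with α. Its domain began at the start itself, with an upstream reach of 13 and −23 bp in the B6 pair, −52 and −41 bp in the MSM pair, −69 bp for F1 BM and −40 bp for F1 MB. The strains did not overlap, by 18 bp, with MSM on the gene side (difference −41.5 bp, pooled SD 18.8 bp, exact permutation p = 0.333). Its downstream reach ran from 436 to 644 bp and its strains overlapped.

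Copz1 (chr15:103272714-103299868, plus strand) encodes the common form of the small ζ subunit. Its domain lay wholly inside the gene in all 6 libraries, beginning 158 and 178 bp after the start in the B6 pair, 242 and 187 bp in the MSM pair, 168 bp for F1 BM and 262 bp for F1 MB. The upstream edges of the strains were separated by 9 bp, again with MSM further inside the gene (reach difference −46.5 bp, pooled SD 29.3 bp, exact permutation p = 0.333). Its downstream reach ran from 699 to 1455 bp, the widest range of the 4 genes, and its strains overlapped (difference −190.5 bp, pooled SD 185 bp). Without joining of peaks that difference was −394 bp (pooled SD 158 bp, exact permutation p = 0.333), and the one of Copa was −407.5 bp (pooled SD 367 bp). Although Copz1 has a B2 relative upstream, its domain edges stayed 548 to 652 bp short of that copy in all 6 libraries, whereas at Arcn1 the promoter peak ended 4 to 149 bp short of the copy in 5 libraries and a peak of MSM replicate 1 lay partly over it.

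The difference between Arcn1 and its partners was tested within libraries. The reach of Arcn1 minus the median of Copa, Copb2 and Copz1 in the same library was 142 and 33 bp in the B6 pair and 851 and 745 bp in the MSM pair. It was 749 bp for F1 BM and 56 bp for F1 MB. The B6 mean of 87.5 ± 77.1 bp and the MSM mean of 798 ± 75.0 bp (SD, n = 2 each) differed by 710.5 bp against a pooled SD of 76.0 bp, with an exact permutation p of 0.333, the smallest possible. On the downstream side the same difference was 85 bp, below the pooled SD of 105 bp. Without joining of peaks the upstream difference was −32.5 bp and the downstream one 382.5 bp (pooled SD 26.6 bp, exact permutation p = 0.333). The downstream one was 212.75 bp (pooled SD 180 bp) with a −log10 q of at least 5 or with the same number of peaks. In all 3 settings the downstream difference of Arcn1 alone stayed at −7.5 bp. The partner medians moved less between the B6 libraries (13 and −23 bp) than the median reach of all promoters (356 and −15 bp), so the subtraction does not remove the library-wide change in reach.

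Set against all promoters, 1 of the 4 genes, Arcn1, was called further upstream in MSM, which required both libraries of a strain to reach at least 200 bp beyond both of the other, and 0.829% of the 5186 promoters were called so. None of the 4 was called further upstream in B6, against 4.8% of promoters. None was called further downstream in MSM or in B6, against 2.16% and 5.65%. The upstream shares moved with the setting. With the median reach of each library subtracted, a setting chosen after seeing the data, 8.52% were further upstream in MSM and 3.05% in B6. Leaving out 1 library raised the MSM share to between 1.24% and 15.4%, highest without B6 replicate 1, and the B6 share to between 5.36% and 26.0%, highest without B6 replicate 2. Arcn1 was called further upstream in MSM under each of these settings, but not without joining, with joining within 200 bp, or with the lists cut to the same number of peaks or covered length. When a library was left out its call was fixed in advance, since the gap between the strains can then only stay or widen. The mean strain difference of Arcn1 was equalled or exceeded at 51 of the 5186 promoters (0.983%). After subtraction of the median reach of all promoters in each library, Arcn1 stood at −201 and 25 bp from the median in the B6 pair and at 780 and 697 bp in the MSM pair. It stood at 631 bp for F1 BM and at 32 bp for F1 MB. The strain difference of Arcn1 was then 826.5 bp, and those of Copa, Copb2 and Copz1 turned from below 0 to 144, 116 and 111 bp, within their pooled SDs of 172, 168 and 179 bp.

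**Figure D3:**
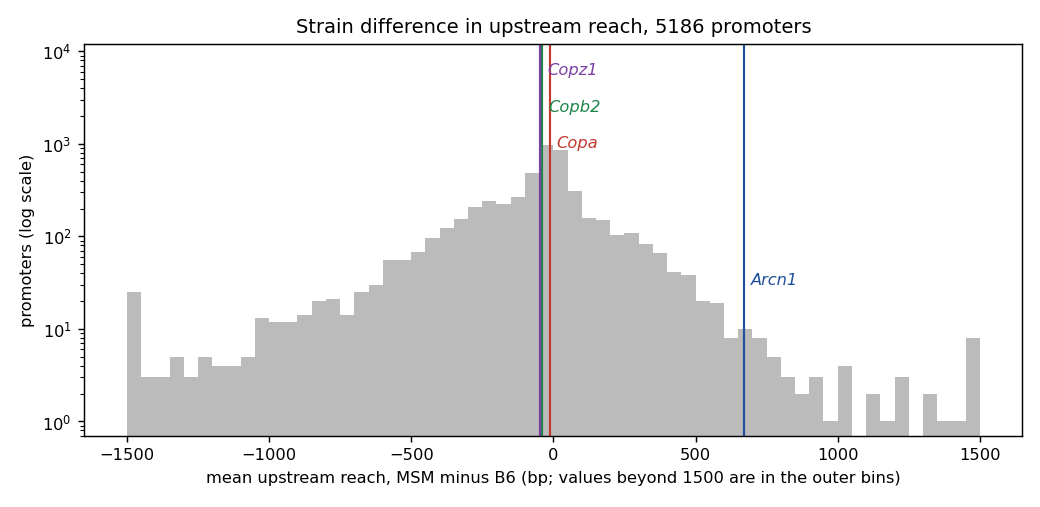
Histogram of the strain difference in mean upstream reach (MSM minus B6, bp) over the 5186 promoters with a domain in all 4 parental libraries, with the number of promoters on a log axis and lines at the 4 COPI coat genes among them. Copa, Copb2 and Copz1 stand at −13.5, −41.5 and −46.5 bp in the centre, and Arcn1 stands at 669 bp in the right tail.

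The 3 partners that were missing from B6 replicate 2 alone were the other subunits of both layers. Copb1 (chr7:114215559-114254711, minus strand) encodes the β subunit of the inner layer. Upstream of its start the reach was 271 bp for B6 replicate 1, −34 and −7 bp in the MSM pair, −28 bp for F1 BM and −35 bp for F1 MB. Cope (chr8:70302518-70312993, plus strand) encodes the small ε subunit that binds α, and the RNA helicase gene Ddx49 starts at −29 bp on the opposite strand. Its upstream reach was 576 bp for B6 replicate 1, 36 and 0 bp in the MSM pair, −16 bp for F1 BM and 420 bp for F1 MB. In F1 MB the upstream part was a peak of its own on the Ddx49 side, at −420 to −117 bp, with a fold of 3.67. At both genes the one B6 value lay above both MSM values, by 278 bp at Copb1 and 540 bp at Cope. With B6 replicate 2 left out, both would be called further upstream in B6, but so would 26.0% of all promoters.

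Copg1 (chr6:87887814-87913595, plus strand) encodes the main form of the γ subunit, and its domain also lay wholly inside the gene. The domain began 142 bp after the start in B6 replicate 1, 187 and 211 bp in the MSM pair, 216 bp for F1 BM and 153 bp for F1 MB, and it ended 619 to 745 bp inside. Upstream of the start, MSM replicate 2 had a peak at −1240 to −1030 bp (fold 4.40) and F1 BM had another at −794 to −519 bp (fold 2.502). These upstream peaks did not overlap, were more than 500 bp from the promoter domain and were each seen in 1 library.

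The alternative forms of γ and ζ had the fewest peaks. Copg2 (chr6:30747554-30896794, minus strand) encodes the second γ subunit and had a domain from 9 to 774 bp inside the gene in B6 replicate 1 (fold 6.33) and from 5 to 238 bp in F1 MB (fold 3.97). Copz2 (chr11:96849870-96861203, plus strand) encodes the second ζ subunit and had 1 peak, from 55 to 478 bp inside the gene, in B6 replicate 1 (fold 6.32). Neither had a peak in B6 replicate 2, MSM or F1 BM, so no strain comparison was possible.

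Peak strength separated the strains at Copa and not at Arcn1. Fold enrichment, the ratio of the signal at the summit to the background used by the peak caller, was taken as the highest of the peaks in the domain. At Arcn1 it was 11.4 and 6.23 in the B6 pair, 9.31 and 4.65 in the MSM pair, 4.95 for F1 BM and 7.42 for F1 MB. The strains overlapped, and the difference of −0.36 on the log2 scale lay below the pooled SD of 0.66 (exact permutation p = 0.667). At Copa the fold was 6.79 and 5.05 in B6, 7.81 and 7.995 in MSM, 5.05 for F1 BM and 5.42 for F1 MB. Both MSM values lay above both B6 values, by a factor of 1.35 between the geometric means (log2 difference 0.43, pooled SD 0.21, exact permutation p = 0.333). The log2 difference was 0.22 without B6 replicate 2 and 0.65 without B6 replicate 1. Copa was the 1 gene of the 4 with this order, which 8.56% of promoters had, and none had the reverse order, which 11% had.

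At Copb2 the fold was 8.23 and 6.10 in B6, 6.35 and 3.92 in MSM, 3.37 for F1 BM and 4.91 for F1 MB, and the strains overlapped (log2 difference −0.51, pooled SD 0.41). At Copz1 it was 8.44 and 4.01 in B6, 4.13 and 4.61 in MSM, 3.49 for F1 BM and 3.15 for F1 MB, and the strains overlapped here too (log2 difference −0.42, pooled SD 0.54). Cope had folds of 3.11 to 6.38, Copg1 of 3.54 to 5.59 and Copb1 of 3.17 to 7.58 over their 5 libraries. Copb1 differed widely between the MSM mice, with 3.17 in MSM replicate 1 and 7.52 in MSM replicate 2. The median promoter fold over all genes was 7.22 and 5.06 in the B6 pair, 5.90 and 5.97 in the MSM pair, 3.87 for F1 BM and 5.21 for F1 MB, so the low values of F1 BM at the coat genes went with a low level at all promoters.

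**Figure D4:**
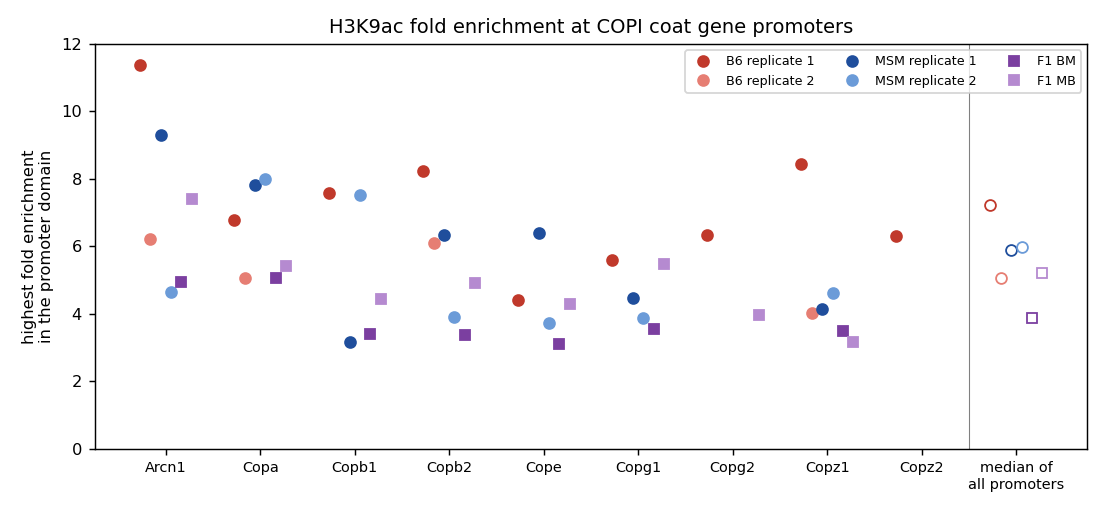
Highest fold enrichment in the promoter domain of each COPI coat gene, 1 point per library (circles, parental; squares, F1), with the median of all promoters of each library as open symbols at the right. At Copa both MSM points (7.81 and 7.995) lie above both B6 points (6.79 and 5.05), and at Arcn1 the strains interleave.

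Beyond the promoters, Copz1 alone carried further peaks in its body. Merging the peaks of the 4 parental libraries gave 14 regions at COPI coat genes, of which 3 lay more than 5 kb from the gene start, all in the same intron of Copz1. One of them, chr15:103281538-103281920, was found in both B6 libraries (folds of 2.40 and 4.03) and in neither MSM library. F1 BM had a peak there as well (3.44) and F1 MB had none. It lies 8597 bp after one exon and 7181 bp before the next, is 383 bp long and has a GC content of 45.2%. The other intron regions, 7536 to 8007 bp and 12729 to 13026 bp inside the gene, were seen in B6 replicate 1 alone. Of the 14 regions, this 1 was B6-specific and 1, the peak beyond the B2 copy at Arcn1, was MSM-specific. Over all 25803 merged regions, 3.29% were B6-specific and 3.38% MSM-specific. At both strain-specific regions F1 BM had a peak and F1 MB, with the shorter list, had none.

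**Figure D5:**
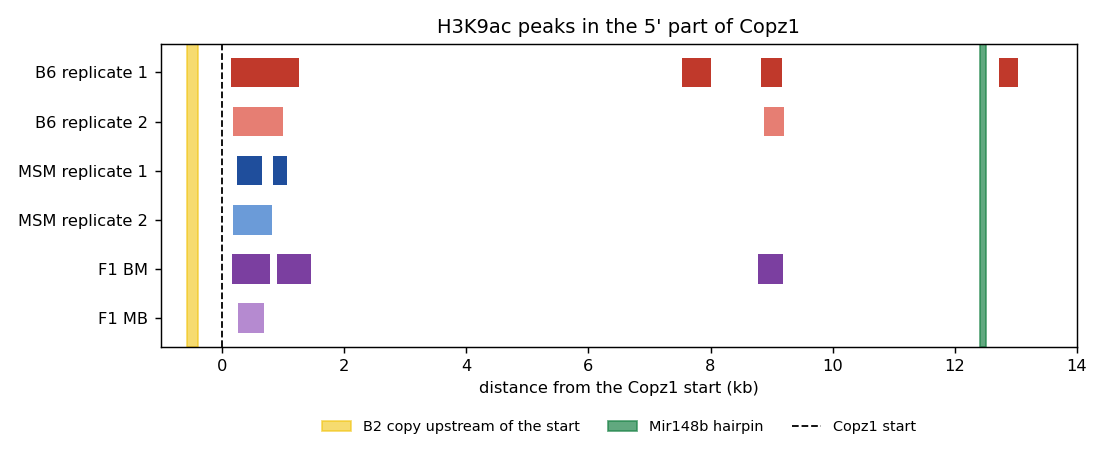
Peaks in the first 14 kb of Copz1 by library, as bars along the distance from the start (kb), with the B2 relative upstream and the Mir148b hairpin shaded. The intron peak near 9 kb is seen in both B6 libraries and F1 BM, and no peak reaches the B2 copy.

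The ζ subunit genes both host a microRNA. Mir148b lies in Copz1, with its hairpin beginning 12411 bp after the start (chr15:103285125-103285221), and Mir152 lies in Copz2, 523 bp after the start (chr11:96850393-96850465), both on the strand of the host. Their mature 3p sequences, from RefSeq (GRCm38.p6), are shown because the 2 paralogous host genes carry microRNAs with the same seed (bases 2 to 8, in capitals), CAGUGCA.

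miR-148b-3p: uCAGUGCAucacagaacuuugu
miR-152-3p: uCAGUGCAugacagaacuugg

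The peak nearest the Mir148b hairpin was the B6 replicate 1 intron peak, 222 bp away, and in the other libraries the nearest peak was 3205 to 11712 bp away. The Copz2 peak of B6 replicate 1 ended 45 bp before the Mir152 hairpin, and in the other libraries the nearest peak was 19909 bp or more away. A peak at these hairpins was thus seen in none of the lists, and one within 1 kb in the longest list only.

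The promoters were compared in sequence over the window from 250 bp before to 50 bp after the start, searching both strands. A GC box (GGGCGG) was in 8 of 9 coat gene promoters, all but Cope, against 43.0% of all promoters. The CCAAT box was in 1, Copz1, against 39.0%. An ETS motif (CCGGAAG) was in Copb2, Cope and Copg1, against 10.8% of promoters. The motif TGACGTGG, recognised by factors of the unfolded protein response, which raises secretory capacity, was in Copb1 and Copb2, against 0.721%. The endoplasmic reticulum stress element, a CCAAT box followed by CCACG after 9 bases, was in none, against 0.114%. These are matches of letters, not sites shown to be bound. None of the motifs was common to the 4 genes with a domain in every library and absent from the others.

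Other genes of membrane transport, 62 in 4 lists, carried a promoter domain in all 4 parental libraries in 41 cases (66.1%), and the 52 of the 3 lists for transport between endoplasmic reticulum and Golgi in 37 (71.2%), against 4 of the 9 coat genes and 23.7% of all promoters. Without B6 replicate 2 the counts were 47 of 62, 43 of 52 and 7 of 9, against 30.7% of all promoters, so the gap between the lists and the coat genes rests on that library. The lists were COPI recruitment and cargo (13 of 20), the COPII coat of vesicles that leave the endoplasmic reticulum (13 of 16), tethers and SNAREs between the 2 organelles (11 of 16), and, for comparison, the clathrin and AP-1 coat of the trans-Golgi network and endosomes (4 of 10). None of the 41 was called further upstream in MSM, 3 were further upstream in B6, none was further downstream in MSM, and 2 were further downstream in B6, beside 0.829%, 4.8%, 2.16% and 5.65% of all promoters. The median strain difference in upstream reach was −23, −180.5, −20 and −134 bp in the 4 lists, against −26 bp over all promoters.

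The 3 genes called further upstream in B6 were Arf5, an ARF GTPase, Sec31a, an outer COPII subunit, and Ap1b1, an AP-1 adaptor subunit. Arf5 reached 427 and 359 bp upstream in the B6 pair and −82 and −76 bp in MSM. Sec31a reached 1024 and 712 bp in B6 and −129 and 497 bp in MSM, and Ap1b1 −137 and −131 bp in B6 and −418 and −461 bp in MSM. The 2 genes further downstream in B6 were Mia3, a cargo receptor at endoplasmic reticulum exit sites, and Scfd1, which acts with the SNARE syntaxin 5. Mia3 reached 1305 and 1301 bp downstream in B6 and 716 and 816 bp in MSM, and Scfd1 711 and 631 bp in B6 and 430 and 343 bp in MSM.

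Promoter fold in the same 41 genes was higher in both MSM libraries at 9 and higher in both B6 libraries at 4, beside 8.56% and 11% of all promoters. By list, the counts higher in MSM were 4 of 13 for COPI recruitment and cargo, 3 of 13 for the COPII coat, 2 of 11 for tethers and SNAREs and 0 of 4 for clathrin and AP-1. In the same order, 0, 2, 1 and 1 were higher in B6. The genes of this paragraph are named after their values were seen. The recruitment and cargo genes higher in MSM were the ARF GTPase gene Arf4, the cargo retrieval receptor gene Kdelr2, and Tmed4 and Tmed7 of the p24 family of cargo receptors. Arf4 had folds of 8.14 and 5.63 in B6 and 10.9 and 11.5 in MSM. Kdelr2 had 9.21 and 4.73 in B6 and 9.52 and 9.27 in MSM, so B6 replicate 1 lay just below the MSM pair. Among the 9 promoters, Sar1b and Sec24a had the same values in every parental library. In B6 replicate 1 the reach was 498 bp upstream and 2383 bp downstream at Sar1b, and 2436 and 445 bp at Sec24a. These reaches mirror each other, so a single domain is counted at both genes. The 4 genes higher in B6 were Sar1a, the GTPase that starts COPII assembly, Mia3, the SNARE gene Bet1 and the clathrin light chain gene Cltb. Sar1a had folds of 10.5 and 6.54 in B6 and 4.83 and 6.19 in MSM, and Mia3 had 18.1 and 9.78 in B6 and 6.78 and 8.74 in MSM.

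Over 4748 promoters with a domain in all 6 libraries, those whose 6 upstream reach values, each minus the library's median, were closest to those of Arcn1 included Chuk, Stx5a, Slc23a1 and Rpl21. Their Euclidean distances from Arcn1 were 368, 373, 399 and 401 bp over the 6 libraries. Rpl21, a ribosomal protein gene, reached 21 and −41 bp in the B6 pair, 466 and 723 bp in MSM, 517 bp for F1 BM and −31 bp for F1 MB. Stx5a, the syntaxin 5 gene of transport to the Golgi and a member of the tether and SNARE list, reached 380 and −9 bp in B6, 574 and 583 bp in MSM, 530 bp for F1 BM and 7 bp for F1 MB. By the 200 bp rule Slc23a1 and Rpl21 were called further upstream in MSM, while Chuk and Stx5a were not, since their B6 replicate 1 values came within 200 bp of an MSM value. The likeness was measured on all 6 libraries, so both the strain difference and the order of the F1 values in these genes are part of the choice and support nothing.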

How the data were processed

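Livers of B6, MSM and F1 mice were fixed with formaldehyde, and chromatin precipitated with an antibody against H3K9ac was sequenced as read pairs. The submitters' processing notes name Trim Galore, HISAT2, SAMtools and MACS2 with no versions, while the published methods name Trim Galore and Bowtie 2 with a long maximal insert; the build was mm10 (GRCm38). The authors deposited 1 narrowPeak list per library, so replicates were not pooled. Each deposited list gave for every peak a fold enrichment (a linear ratio over the background of the peak caller), the −log10 of the p-value and of the q-value, and a score, which was not used. The threshold and the use of the input were not given in the sources used here; the lowest −log10 q per list was 1.30 to 1.35.

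Gene starts were those of the longest GENCODE M21 record per symbol, and sequence came from the RefSeq copy of GRCm38.p6, the same build. Domains, reach and calls were computed with Python 3.11.15 and numpy 2.4.6, B2 copies with blastn 2.17.0 on the main chromosomes, sequence extraction with samtools 1.23.1 and figures with matplotlib 3.10.9. RefSeq microRNA entries were matched by symbol, and both were found. Strains were compared by two-sided exact permutation tests over the 6 assignments of the 4 parental libraries, against the pooled SD. The functions for domains, reach and calls were tested on simulated data.

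All 9 coat genes are named. Other genes are named when their start lies within 1 kb of a coat gene start, when a pathway list gene was called by the 200 bp rule, or when they are among the 5 promoters most like Arcn1, of which 1 is not reported here. Pathway genes named for their promoter fold were chosen after their values were seen. Of these neighbours, Copb2 and Copg2 have the noncoding 4930579K19Rik and 4930412F09Rik on the opposite strand, beginning at −110 and −105 bp from their starts, and Ift46 begins at −63 bp from that of Arcn1. The coat genes, the pathway and marker lists and the rules were chosen with earlier results of these data known. Of 10 hepatocyte markers 1, listed as Tf, is not a symbol of the annotation. Alternatives were other joining distances, thresholds and list lengths, another gene start, a wider search, centring, other margins, leaving out each library and a replicate block.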

Additional observations from a re-analysis of the deposited data

How the results depend on the processing

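The upstream difference of Arcn1 was above 0 under 14 of 15 alternatives, but its size depended on whether the peak beyond the B2 copy was kept and joined. Leaving out a library and the replicate block could not change its sign, since the strains did not overlap. Another gene start shifted all libraries alike. The count of 14 thus says little about stability. Without joining of peaks the difference of Arcn1 turned to −74 bp, and Arcn1 minus its partners turned to −32.5 bp. With joining within 200 bp, the same number of peaks or the same covered length, it was 326 bp each time, and against the partners 367.5, 356 and 339.5 bp. The joining distance was measured in the reference, which holds the copy. With the median of all promoters subtracted the difference of Arcn1 was 826.5 bp. Under those 4 peak settings 0 coat genes were called further upstream in MSM. Leaving out 1 library gave 596.5 to 741.5 bp for Arcn1 and 657.5 to 772 bp against the partners. With 1 library left out, the number of coat genes with a domain in all parental libraries used was 4 to 7, with 7 without B6 replicate 2. It was 3 with a −log10 q of at least 5, 3 with the same number of peaks, and 2 with the same covered length, where Arcn1 and Copa remained. The number of coat genes called further upstream in MSM was 1 whichever library was left out, and the number further upstream in B6 was 0 to 2, with Copb1 and Cope when B6 replicate 2 was left out. The call of Arcn1 could not be lost in this way, since the gap between the strains can then only stay or widen.

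The share of all promoters called further upstream in MSM was 1.31% with the same number of peaks, 1.81% with the same covered length, 1.27% and 0.328% with margins of 100 and 500 bp, 8.52% with the median subtracted (a setting chosen after seeing the data) and 1.24% to 15.4% with 1 library left out, highest without B6 replicate 1. In B6 it was 2.26% with a margin of 500 bp, 3.05% with the median subtracted and 5.36% to 26.0% with 1 library left out, highest without B6 replicate 2. The number of coat genes with a B2 copy was 1 at 90% identity over 150 bp, which is Arcn1, whose copy was the query. For 12 other results, 70 of 80 alternative values stayed within 1 pooled SD or, for percentiles of the fold, kept their sign. The 10 others were strain differences in the reach of Copa, Copb2 and Copz1, and in the downstream reach of Arcn1 minus the partner median. They moved with joining, list length, threshold or centring. Leaving out a library and the block are not counted there, since with 2 libraries per strain neither can move the value of a single gene by more than 1 pooled SD.

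Replicate numbers were shared by B6 and MSM in the labels. Deviations of same-numbered libraries correlated by 0.0583 for upstream reach and by −0.0254 for log2 fold over 5186 promoters, so little common deviation was seen in these measures. Whether same-numbered libraries shared a batch was not tested. With the replicate block the Arcn1 difference was 669 bp and the difference against the partners 710.5 bp, each with a two-sided exact sign-flip p of 0.5, the smallest that 2 pairs allow. With 2 libraries per strain, no read counts and lists that differ in length, edges are known only as far as each list's threshold drew them.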

Other observations

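Upstream of Arcn1 lies the start of the coding transcripts of Ift46, 5065 bp from the Arcn1 start on the opposite strand. A peak just inside Ift46 was listed in B6 replicate 1 (fold 6.31), MSM replicate 1 (3.76), MSM replicate 2 (3.99) and F1 BM (2.12), and none was listed in B6 replicate 2 or F1 MB, which had the 2 shortest lists. F1 MB lacked this peak, the peak beyond the B2 copy and the Copz1 intron peak, each of which F1 BM had. The strain pattern of the peak beyond the copy was not shared by this Ift46 peak, which was present in 1 of 2 B6 libraries.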
